A study of Mus musculus with 9 samples.

Results

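The genes described here encode the nuclear subunits of complexes II, III, IV and V of mitochondrial oxidative phosphorylation, with cytochrome c (Cycs). They were defined by name, as 25 listed symbols and every symbol that starts with Atp5 and is not marked as a pseudogene. The list was set with earlier results of these data known. It gave 43 of the 32427 genes in the matrices. Complex II held 4 of them, complex III 9, complex IV 11 and complex V 18. Their RNA was counted in single-cell libraries of kidneys from 9 male C57BL/6 mice, 3 per group, aged 6 weeks at the start and killed after 8 weeks, with part of a kidney of each mouse used. Control mice received saline, AKI-CKD mice received 4 weekly intraperitoneal injections of cisplatin at 8 mg/kg, and AKI-CKD + EGT mice received the same cisplatin and ergothioneine (EGT) at 0.5 mg/mL in drinking water from 3 days before the first dose. Cisplatin is a platinum drug that injures the proximal tubule, and the repeated dose serves as a model in which acute injury (AKI) passes into chronic disease (CKD) of the kidney. EGT is a diet-derived thiol antioxidant. No group received EGT without cisplatin, so the effect of EGT alone was not measured.

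Oxidative phosphorylation moves electrons from nutrients to oxygen and uses the energy to make ATP. Complex II (succinate dehydrogenase) passes electrons from succinate to ubiquinone, complex III (cytochrome bc1) passes them on to cytochrome c, complex IV (cytochrome c oxidase) reduces oxygen, and complex V (ATP synthase) makes ATP from the proton gradient. Complex II is encoded wholly in the nucleus, whereas complexes III, IV and V join nuclear subunits with a few made from mitochondrial DNA. Tubule cells that reabsorb much salt, in the proximal tubule, thick ascending limb and distal convoluted tubule, are rich in mitochondria and depend on this pathway.

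Promoters of respiratory genes are known for sites of NRF1 and of ETS family factors, and a few sequences are shown because they carry such letters in genes described here. RefSeq promoters on GRCm38.p6, from 250 bases before to 50 after the start, were found for 32 of the 43 genes, 35 promoters in all. This is not the build of the counts, which is GRCm39 in the submitters' notes. The NRF1 motif, written as GCGCA, 1 base of any kind and GCGC and searched on both strands, was in 10 of the 35 promoters (28.6%), against 4.60% of all 32851 promoters of this length. The ETS motif CCGGAAG on either strand was in 12 (34.3%), against 8.86% of all. The letters AAGATGGCG (YY1) and TNAAGGTCA (ERR) were in 2 promoters each (5.71%), against 1.40% and 1.28% of all, and the TATA box letters TATAAA were in 1 (2.86%), against 13.6%. These are matches of letters and not measured binding. In the windows below, all on the minus strand of GRCm38.p6, capitals mark the NRF1 motif.
Sdha, chr13:74350319-74350348: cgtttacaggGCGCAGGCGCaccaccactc
Sdhd, chr9:50603909-50603938: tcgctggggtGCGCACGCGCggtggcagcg
Cox6a1, chr5:115349101-115349130: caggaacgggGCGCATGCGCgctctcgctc
Atp5mc2, chr15:102671070-102671099: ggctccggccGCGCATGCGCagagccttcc
Atp5me, chr5:108434430-108434459: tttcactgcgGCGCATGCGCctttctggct

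The libraries held 216680 cell barcodes, of which 196925 passed the filters, and 64225484 to 97584966 UMIs (unique molecules counted) per mouse stayed in kept cells. Barcode names follow a running number, and 62337 of 98290 names occurred in more than 1 library. Marker genes placed 154247 cells as PT-like (proximal tubule, 78.3% of kept cells), 13177 as DCT-like (distal convoluted tubule) and 7870 as LOH-like (loop of Henle, thick limb). One PT-like cluster of 1533 cells had 11 of 15 PT markers raised and also 4 of 7 markers of intercalated cells (CD-IC). With a 2-fold marker limit it was named CD-IC, led by Atp6v0d2, Foxi1 and Slc26a4 with 1 PT marker raised, so its type is uncertain. A further cluster of 4978 cells had 11 PT markers raised but was led by haemoglobin genes and left unnamed. It held 84, 736 and 2250 cells of Control mice 1, 2 and 3. From AKI-CKD mice it held 55, 58 and 100, and from AKI-CKD + EGT mice 219, 1233 and 243. How this bears on the PT-like values was not tested. All 8 LOH markers, Umod and Slc12a1 among them, were raised in the LOH-like cluster, and all 8 DCT markers, such as Slc12a3 and Pvalb, in each DCT-like cluster. The DCT-like cluster of 5008 cells was led by Calb1 and S100g. With the 2-fold limit it also had 4 markers of principal cells (CD-PC) raised. Whether it holds cells of another segment was not tested. PT marker RNA was also found outside PT-like cells, with a mean of 106386 CPM (UMIs of a gene or list scaled to one fixed library total) in PT-like, 69323 in LOH-like and 57449 in DCT-like cells. The part of PT marker RNA in the values of LOH-like and DCT-like cells was not tested. Within the proximal tubule the list was uneven, at 35620 CPM in clusters with S1 segment markers and 149972 CPM in those with S3 segment markers. Its sum is thus no even measure of PT identity. Libraries stood apart in mitochondrial RNA: 27.7% of cells of AKI-CKD + EGT mouse 3 and 17.0% of Control mouse 1 exceeded the limit of 15% mitochondrial UMIs and were left out, against 0.909% to 7.94% in the other mice. AKI-CKD + EGT mouse 3 also had the highest nuclear RNA (Malat1 and Neat1) in PT-like cells, 1.53% of UMIs, against 0.287% to 0.970% in the others.

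Nuclear complex III, IV and V RNA took a larger share of UMIs in all AKI-CKD mice than in any Control mouse, in PT-like, LOH-like and DCT-like cells alike. Complex II RNA did not separate the groups. In PT-like cells the 43 genes together held 4.82%, 5.05% and 4.64% of UMIs in Control mice 1, 2 and 3. The AKI-CKD mice held 5.37%, 6.33% and 5.57%, and the AKI-CKD + EGT mice 5.26%, 5.01% and 4.84%. The AKI-CKD mice lay above both other groups, with AKI-CKD + EGT mouse 1 close to the lowest of them. For complex IV the shares were 1.86%, 1.93% and 1.69% in Control, 2.07%, 2.45% and 2.19% in AKI-CKD and 2.01%, 1.95% and 1.83% in AKI-CKD + EGT mice, and for complex II 0.124%, 0.126% and 0.143%, 0.130%, 0.126% and 0.131%, and 0.142%, 0.135% and 0.117% in the same order. These are sums over cells of a type, in which fewer expressing cells and less RNA per cell cannot be told apart.

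**Figure D1:**
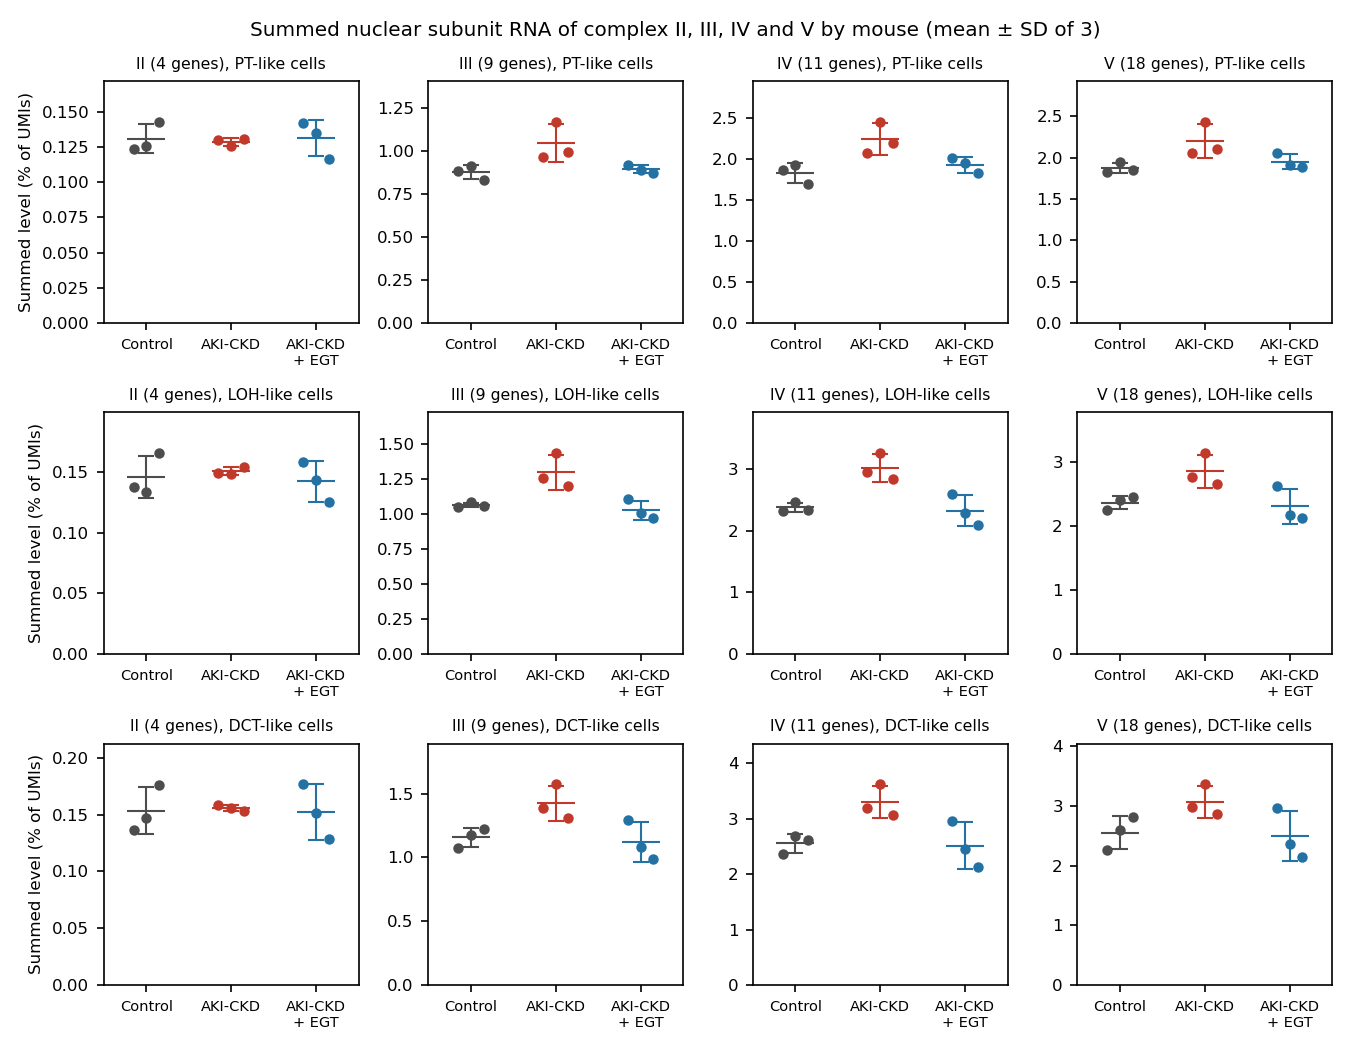
Summed level of the nuclear genes of each complex as percent of UMIs (y axis, from 0), by group, in PT-like, LOH-like and DCT-like cells; points are mice, lines the mean and bars the SD of 3. The AKI-CKD points lie above all Control points for complexes III, IV and V, whereas those of complex II overlap.

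To ask which single genes differed, UMIs were summed per mouse and tested with edgeR's quasi-likelihood test over all genes. Comparisons of AKI-CKD with Control and of AKI-CKD + EGT with AKI-CKD share the AKI-CKD mice, so a high AKI-CKD value gives opposite signs in both. All 43 passed the filter on low counts in each population tested. In all kept cells together 0 of the 43 passed an adjusted p of 0.05, where 0.0199% and 0.00496% of 20144 genes passed, with 6 and 14 members at an unadjusted p under 0.05 (8.02% and 12.7% of genes) and 0 and 5 called by DESeq2 (0.842% and 1.43% of the genes to which it gave an adjusted p). There 40 of 43 log2 fold changes were above 0 for AKI-CKD against Control (50.2% of genes) and 42 below 0 for AKI-CKD + EGT against AKI-CKD (51.2%), and the mice did not overlap for 25 and 20 of them (8.71% and 9.73%). In PT-like cells none of the 43 genes passed an adjusted p of 0.05 in either comparison, where 0.0446% and 0% of the 17921 genes tested passed. At an unadjusted p under 0.05 there were 12 and 15 of the 43, against 11.4% and 15.3% of all genes. For AKI-CKD against Control, 41 of 43 log2 fold changes were above 0, against 48% of all genes, with a median of 0.34 beside -0.01 over all genes. The 3 AKI-CKD mice lay above the 3 Control mice for 27 of 43 genes, against 11.5% of all genes. For AKI-CKD + EGT against AKI-CKD, 42 of 43 were below 0, against 51.2% of all genes, with a median of -0.36 beside -0.01, and the mice did not overlap for 22, all lower, against 11% of all genes. The size of a change depended on the scaling: with plain total UMIs the median of all genes was -0.11 and 0.22 in these comparisons and that of the 43 genes 0.25 and -0.14. DESeq2 with its own size factors called 0 members for AKI-CKD against Control and 5 lower in AKI-CKD + EGT (Uqcr10, Uqcr11, Cox4i1, Cox6b1 and Atp5mj), where it called 1.48% and 2.34% of the genes to which it gave an adjusted p. Without the cluster that also carried CD-IC markers, an alternative chosen after seeing the data, 152714 PT-like cells gave medians of 0.34 and -0.36 and edgeR called 0 members.

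Levels of markers of other cell types in PT-like cells also differed between the groups. For AKI-CKD + EGT against AKI-CKD, all 8 DCT markers had a log2 fold change above 0 (median 2.09, 6 without overlap), as had all 8 LOH markers (1.53, 4 without overlap), all 7 CD-PC markers (principal cells, 1.22, 5 without overlap) and all 7 CD-IC markers (1.66, 2 without overlap), and 0 of them passed edgeR's test. All 7 podocyte markers (median 1.34, 2 without overlap) and all 5 erythroid markers (5.02, 5 without overlap) were above 0 too, and none passed the test. Of all 17921 genes tested, 8752 were above 0 in this comparison and 1849 were higher without overlap. The 2 T cell markers tested had a median of -0.10. For AKI-CKD against Control the erythroid median was -5.15, with 1 of 5 markers lower without overlap, beside 1689 of 17921 genes. DCT markers summed to 0.0104% to 0.0213% of UMIs in Control, 0.00732% to 0.0110% in AKI-CKD and 0.0173% to 0.0402% in AKI-CKD + EGT mice. For LOH markers the sums were 0.00886% to 0.0196%, 0.00557% to 0.00969% and 0.0113% to 0.0455%, so both lists were higher in every AKI-CKD + EGT than in any AKI-CKD mouse. For AKI-CKD against Control the medians were -1.30 for DCT and -0.90 for LOH markers, and that of the 15 PT markers was near 0, beside -0.25 with EGT. The part of these cells or their RNA in the members' values was not tested.

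**Figure D2:**
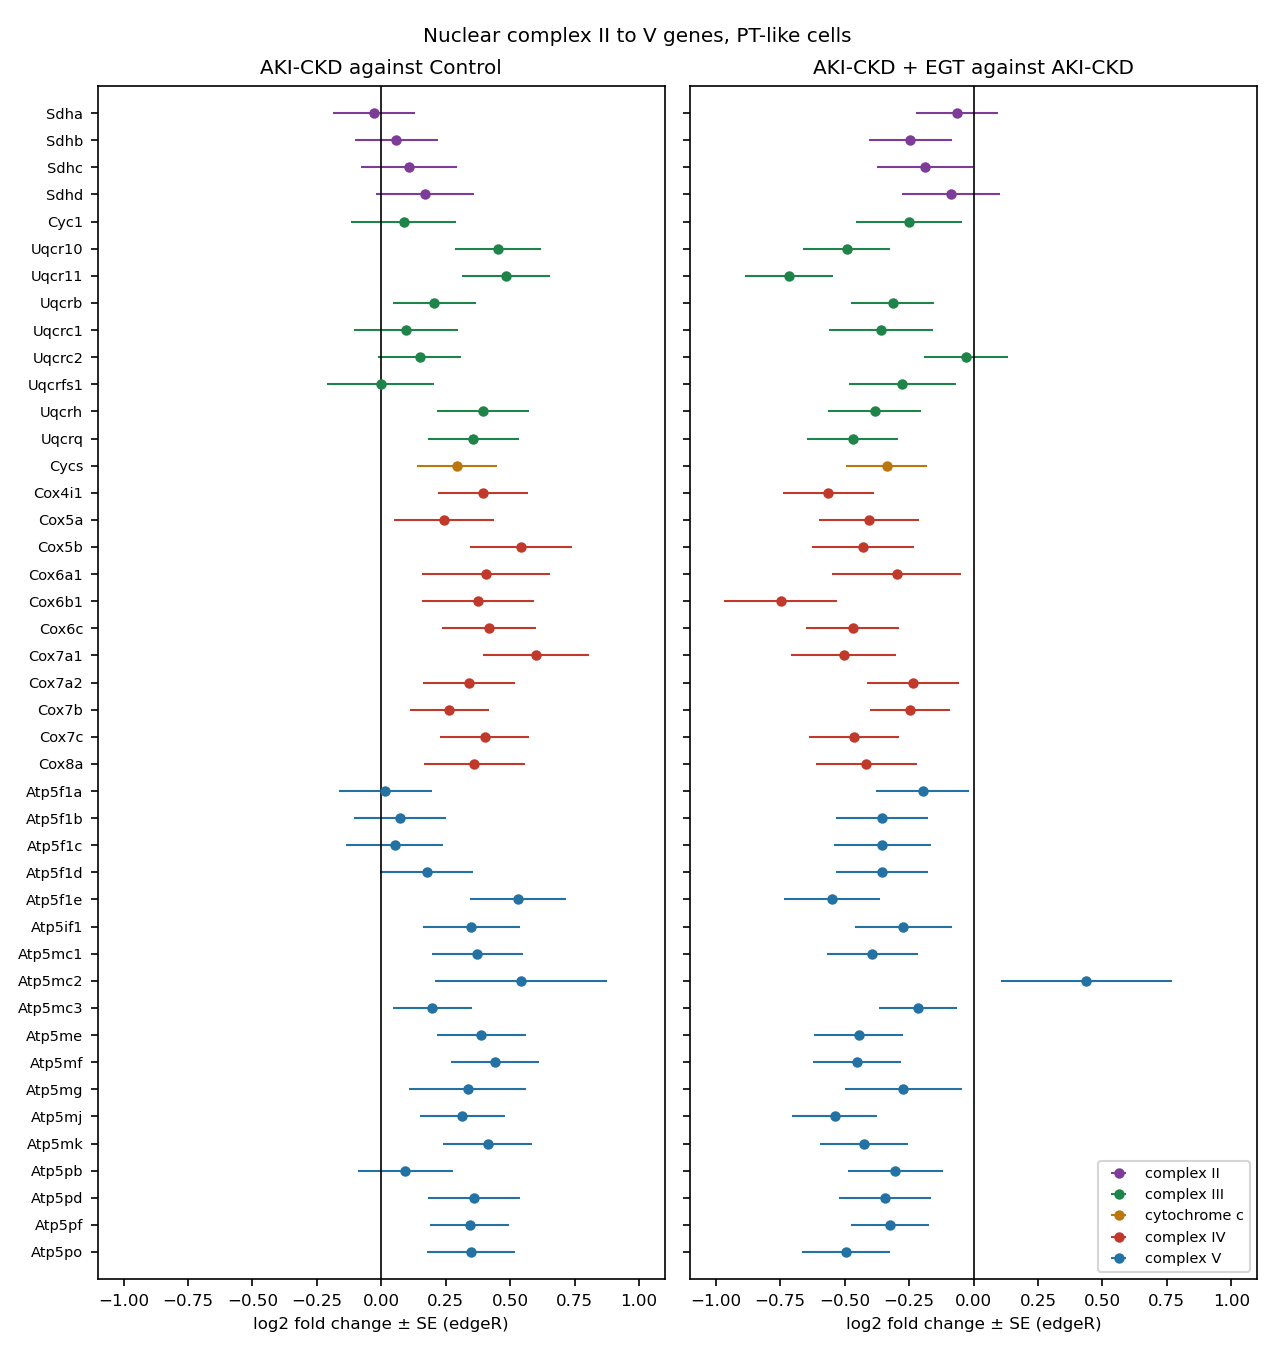
Fold change of each of the 43 genes in PT-like cells (x axis, log2, with the standard error as bar) for AKI-CKD against Control (left) and AKI-CKD + EGT against AKI-CKD (right), coloured by complex. On the left 41 of 43 points lie above 0, and on the right Atp5mc2 is the only point above 0.

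Single genes are given below as TMM-scaled CPM in PT-like cells, listed for mice 1, 2 and 3 of a group, with edgeR's log2 fold change, its standard error (SE) and Benjamini-Hochberg adjusted p. None of these passed the test.

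For the 4 complex II genes the median was 0.08 on the log2 scale for AKI-CKD against Control and -0.14 for AKI-CKD + EGT against AKI-CKD. Sdha encodes the flavoprotein that oxidizes succinate. Its level was 199, 211 and 249 CPM in Control, 203, 194 and 248 in AKI-CKD and 231, 213 and 174 in AKI-CKD + EGT mice. The 3 groups overlapped, with log2 fold changes of -0.03 (SE 0.16, edgeR adjusted p = 0.954) and -0.06 (SE 0.16, edgeR adjusted p = 0.878). Sdhb, the iron-sulfur subunit, was at 552, 609 and 708 CPM in Control, 656, 610 and 681 in AKI-CKD and 611, 579 and 452 in AKI-CKD + EGT mice. Its values overlapped in both comparisons, at log2 0.06 (SE 0.16) and -0.25 (SE 0.16, edgeR adjusted p = 0.478). Sdhd, a membrane anchor, was at 92.9, 104 and 99.2 CPM in Control, 108, 108 and 117 in AKI-CKD and 138, 102 and 74.3 in AKI-CKD + EGT mice. The AKI-CKD mice lay just above the Control mice for Sdhd (log2 0.17, SE 0.19, edgeR adjusted p = 0.729), and the EGT mice spanned a wider range than both other groups.

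Among the 9 complex III genes the median log2 fold change was 0.20 and -0.36, and the small subunits stood at the upper end of the first comparison. Uqcr11, a small accessory subunit, was at 1311, 1612 and 1178 CPM in Control, 1662, 2187 and 1881 in AKI-CKD and 1177, 1200 and 1110 in AKI-CKD + EGT mice. All AKI-CKD values exceeded all others. The log2 fold changes were 0.48 (SE 0.17, edgeR adjusted p = 0.37) and -0.72 (SE 0.17, edgeR adjusted p = 0.223), the latter being the lowest adjusted p of the 43 genes in PT-like cells. Uqcrc2, a core protein without a role in electron transfer, was at 465, 450 and 508 CPM in Control, 476, 524 and 577 in AKI-CKD and 591, 545 and 410 in AKI-CKD + EGT mice. Its groups overlapped, at log2 0.15 (SE 0.16) and -0.03 (SE 0.16, edgeR adjusted p = 0.954). Uqcrfs1, the Rieske iron-sulfur protein, was at 426, 529 and 637 CPM in Control, 510, 511 and 569 in AKI-CKD and 536, 460 and 317 in AKI-CKD + EGT mice. Its 3 Control mice spanned all AKI-CKD values, and the fold change was near 0 (SE 0.21, edgeR adjusted p = 0.998). Cycs, the soluble carrier between complexes III and IV, was at 1096, 1355 and 1279 CPM in Control, 1413, 1566 and 1596 in AKI-CKD and 1355, 1190 and 1075 in AKI-CKD + EGT mice. Its AKI-CKD mice did not overlap either group, with log2 fold changes of 0.29 (SE 0.16, edgeR adjusted p = 0.477) and -0.34 (SE 0.16, edgeR adjusted p = 0.335).

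Complex IV had the highest median of the complexes with several genes, 0.39. For all 11 of its genes the AKI-CKD mice lay above the Control mice, against 11.5% of all genes. In AKI-CKD + EGT the median of complex IV was -0.43, and 8 of 11 genes lay below AKI-CKD without overlap, against 11% of all genes. Cox6b1, which joins oxidase monomers into a dimer, was at 1382, 1542 and 1406 CPM in Control, 1692, 2068 and 1856 in AKI-CKD and 735, 1364 and 1244 in AKI-CKD + EGT mice. AKI-CKD + EGT mouse 1 was far below its group, and all EGT values were below every other mouse. The log2 fold changes were 0.38 (SE 0.22, edgeR adjusted p = 0.504) and -0.75 (SE 0.22, edgeR adjusted p = 0.23). Cox5a, a matrix-side subunit, was at 1104, 1383 and 1248 CPM in Control, 1420, 1476 and 1529 in AKI-CKD and 1371, 1152 and 815 in AKI-CKD + EGT mice. The AKI-CKD mice stood above both groups by a narrow margin, at log2 0.24 (SE 0.19, edgeR adjusted p = 0.62) and -0.41 (SE 0.19, edgeR adjusted p = 0.347). Cox7a1, the isoform known from heart and skeletal muscle, was at 85.7, 79.2 and 55.8 CPM in Control, 97.7, 146 and 90.5 in AKI-CKD and 75.9, 83.2 and 76.7 in AKI-CKD + EGT mice. AKI-CKD mouse 2 was the highest, and the fold changes were 0.60 (SE 0.20, edgeR adjusted p = 0.357) and -0.50 (SE 0.20, edgeR adjusted p = 0.289). Its widely expressed partner Cox7a2 was at 2096, 2254 and 1874 CPM in Control, 2345, 2811 and 2728 in AKI-CKD and 2574, 2311 and 1814 in AKI-CKD + EGT mice. Cox7a2 overlapped between the cisplatin groups, at log2 0.34 (SE 0.18) and -0.24 (SE 0.18, edgeR adjusted p = 0.547).

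The 18 complex V genes had medians of 0.35 and -0.35, with Atp5f1a, Atp5f1c and Atp5f1b of the catalytic part at the lower end of the first comparison. Atp5f1a, the alpha subunit of the catalytic head, was at 744, 886 and 984 CPM in Control, 844, 871 and 928 in AKI-CKD and 887, 827 and 590 in AKI-CKD + EGT mice. Control spanned AKI-CKD, and the fold changes were 0.02 (SE 0.18, edgeR adjusted p = 0.98) and -0.20 (SE 0.18, edgeR adjusted p = 0.624). Atp5f1e, the epsilon subunit of the central stalk, was at 1504, 2126 and 1745 CPM in Control, 2256, 2983 and 2528 in AKI-CKD and 2008, 1668 and 1634 in AKI-CKD + EGT mice. It did not overlap in either comparison, at log2 0.53 (SE 0.19, edgeR adjusted p = 0.37) and -0.55 (SE 0.19, edgeR adjusted p = 0.248). Atp5if1, the inhibitor that blocks ATP hydrolysis, was at 1498, 1608 and 1182 CPM in Control, 1546, 2057 and 1861 in AKI-CKD and 1755, 1474 and 1297 in AKI-CKD + EGT mice. Its groups overlapped in both comparisons (log2 0.35 and -0.27, SE 0.19 each).

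The proton-conducting c ring of complex V can be made from 3 genes whose products share one mature peptide. Atp5mc1 was at 989, 1090 and 910 CPM in Control, 1281, 1382 and 1206 in AKI-CKD and 1209, 956 and 784 in AKI-CKD + EGT mice, with log2 fold changes of 0.37 (SE 0.18, edgeR adjusted p = 0.449) and -0.39 (SE 0.18, edgeR adjusted p = 0.327). Atp5mc3 was at 1011, 1108 and 955 CPM in Control, 1048, 1264 and 1215 in AKI-CKD and 1113, 1036 and 889 in AKI-CKD + EGT mice, which overlapped throughout. Atp5mc2 was at 19.2, 21.9 and 18.7 CPM in Control, 26.2, 34.2 and 26.6 in AKI-CKD and 64.8, 33.6 and 19.2 in AKI-CKD + EGT mice. The value of AKI-CKD + EGT mouse 1 was the highest by far and that of mouse 3 was at the Control level. The fold change of 0.44 (SE 0.33, edgeR adjusted p = 0.549) therefore rested on mouse 1: without it the value was -0.14. Reads from stretches that family members share can be split or lost in counting. This was not tested for the Atp5mc genes, so their levels are uncertain.

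AKI-CKD mouse 2 and AKI-CKD + EGT mouse 3 were the extremes for most genes in PT-like cells. There mouse 2 of AKI-CKD was the highest of 9 for 25 of the 43 genes, and mouse 3 of AKI-CKD + EGT the lowest for 34. In all kept cells AKI-CKD mouse 3 was the highest for 18 and AKI-CKD mouse 2 for 15. AKI-CKD mouse 2 was the highest for 31 in DCT-like and 30 in LOH-like cells. AKI-CKD + EGT mouse 3 was the lowest for 36 in all kept cells, 33 in DCT-like and 20 in LOH-like cells. With each mouse left out in turn, the median of the 43 genes in PT-like cells stayed between 0.27 and 0.42 for AKI-CKD against Control. For AKI-CKD + EGT against AKI-CKD it stayed between -0.51 and -0.23, the -0.23 without AKI-CKD + EGT mouse 3. In all kept cells the latter median, -0.36, was likewise -0.23 without that mouse.

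In LOH-like and DCT-like cells again no member passed edgeR's test. In LOH-like cells 0.057% and 0.228% of the 10535 genes passed in the comparisons of AKI-CKD with Control and of AKI-CKD + EGT with AKI-CKD. At an unadjusted p under 0.05 there were 8 and 16 of the 43, against 11.4% and 13.5% of all genes, and DESeq2 called 0 and 3 (Uqcr11, Cox4i1 and Cox6b1), beside 0.312% and 1.16% of the 9309 and 7675 genes to which it gave an adjusted p. The members' medians were 0.22 and -0.31, beside medians near 0 and of 0.02 over all genes. Leaving out 1 mouse gave 0.14 to 0.27 and -0.39 to -0.23, the 0.14 without AKI-CKD mouse 2. Above 0 were 37 of 43 in the first comparison (49.5% of genes) and below 0 were 40 in the second (47.7%). AKI-CKD lay wholly above Control for 20 of 43 genes (9% of all genes), and AKI-CKD + EGT wholly below AKI-CKD for 17 (8.4%). The nearest to the threshold was Uqcr11, at 1738, 1877 and 1456 CPM in Control, 2312, 2547 and 2082 in AKI-CKD and 1415, 1393 and 1436 in AKI-CKD + EGT mice. Its log2 fold changes in LOH-like cells were 0.45 (SE 0.15, edgeR adjusted p = 0.294) and -0.71 (SE 0.15, edgeR adjusted p = 0.0553). Cox6b1 was at 1979, 1932 and 1959 CPM in Control, 2410, 2810 and 2249 in AKI-CKD and 1007, 1747 and 1729 in AKI-CKD + EGT mice, a log2 fold change of -0.73 (SE 0.19, edgeR adjusted p = 0.115) after EGT. As in PT-like cells, mouse 1 of AKI-CKD + EGT was the lowest for Cox6b1. Uqcrfs1 ran the other way in LOH-like cells, at 633, 616 and 778 CPM in Control and 500, 671 and 588 in AKI-CKD mice, though the groups overlapped (log2 -0.20, SE 0.17, edgeR adjusted p = 0.699). PT markers summed to 8.07% to 9.29% of UMIs in LOH-like cells of Control mice and to 3.61% to 7.17% in AKI-CKD mice, with no overlap. The cells' own LOH markers summed to 0.641% to 0.967% in Control and 1.15% to 1.46% in AKI-CKD mice, and all 8 had a log2 fold change above 0 (median 0.55, 6 without overlap). With EGT, edgeR called 3 of the 7 DCT markers tested (median of the 7, 2.11) and 1 of the 5 CD-PC markers higher in LOH-like cells, whereas the LOH markers had a median of -0.54. The part of these in the members' values was not tested.

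In DCT-like cells 0% of the 12024 genes passed edgeR's test in both comparisons. At an unadjusted p under 0.05 there were 14 and 21 of the 43 members, against 9.27% and 12.6% of all genes, and DESeq2 called 0 of the 40 members to which it gave an adjusted p and 3 of 43, the same genes as in LOH-like cells, beside 0% and 0.9% of the 835 and 4331 genes to which it gave one. The medians were 0.35 and -0.39, beside -0.01 and near 0 over all genes, and 0.26 to 0.39 and -0.54 to -0.29 with 1 mouse left out. Above 0 were 42 of 43 in the first comparison (48.8% of genes) and below 0 were 42 in the second (49.6%). AKI-CKD lay wholly above Control for 27 of 43 genes (8.55% of all genes) and AKI-CKD + EGT wholly below AKI-CKD for 16 (8.57%). Cox7a1 was at 97.6, 88.2 and 96.5 CPM in Control, 157, 220 and 101 in AKI-CKD and 105, 101 and 103 in AKI-CKD + EGT mice. AKI-CKD mouse 3 was near both other groups, and the log2 fold changes were 0.77 (SE 0.22, edgeR adjusted p = 0.427) and -0.64 (SE 0.22, edgeR adjusted p = 0.316). Cox6b1 was at 1951, 2082 and 2183 CPM in Control, 2576, 3151 and 2649 in AKI-CKD and 1137, 1778 and 1749 in AKI-CKD + EGT mice. All EGT values lay below all Control values, with log2 -0.84 (SE 0.19, edgeR adjusted p = 0.294) against AKI-CKD. As percent of UMIs, the 43 genes held 5.97%, 6.75% and 6.99% in Control, 7.90%, 8.93% and 7.57% in AKI-CKD and 7.57%, 6.19% and 5.54% in AKI-CKD + EGT mice, so here the cisplatin groups touched. PT marker RNA in the same cells summed to 6.64% to 8.07% of UMIs in Control, 2.58% to 6.38% in AKI-CKD and 3.58% to 6.41% in AKI-CKD + EGT mice. In DCT-like cells the 7 CD-PC markers had medians of 0.72 and -0.67 on the log2 scale, with overlapping sums. They were mixed, with 5 above and 2 below 0 in the first comparison and 3 above and 4 below in the second. The 7 LOH markers tested had medians of 0.46 (6 above and 1 below 0) and -0.30 (2 above and 5 below). With EGT the 3 CD-IC markers tested had a median of 2.01 and the 3 podocyte markers 1.77, all above 0. None of these markers passed edgeR's test, and their part in the members' values was not tested.

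Levels also differed by cell type, with CD-IC-like and DCT-like cells at the top. CD-IC-like cells numbered 1743, and the PT-like cluster of 1533 cells that also carried CD-IC markers was not among them. Summed over the 43 genes and averaged over 9 mice, with plain total UMIs, CD-IC-like cells had 72264 CPM (SD 10309), DCT-like 70465 (SD 10671), LOH-like 64976 (SD 8518), cycling 57641 (SD 3960) and PT-like cells 52084 (SD 5116). Below them were CD-PC-like (46733), macrophage-like (44418), thin limb-like (44228), myofibroblast-like (39887), B cell-like (39586), T cell-like (36552) and endothelial-like cells (35341). The ranges over mice of neighbours in this order overlapped in every case. Within a mouse, DCT-like exceeded LOH-like cells in 9 of 9 mice and LOH-like exceeded cycling cells in 7, whereas CD-IC-like exceeded DCT-like cells in 6. PT-like cells were lower than DCT-like, LOH-like and CD-IC-like cells in 9 of 9 mice, by a log2 ratio of -0.43 (SD 0.13), -0.31 (SD 0.09) and -0.46 (SD 0.14). They exceeded endothelial-like cells in 9 of 9 (log2 0.56, SD 0.16). All these levels are shares of the UMIs of a type and not RNA per cell. Median UMIs per cell were 2870 in PT-like, 2160 in DCT-like and 2092.5 in LOH-like cells. For CD-IC-like cells the median was 2970, for cycling cells 3977 and for endothelial-like cells 2422.5. Within the proximal tubule, clusters with S1 markers had 59043 CPM and clusters with S3 markers 44544. Of the 3 clusters counted as S3, those of 13472 and 8747 cells also had 1 S1 marker raised each (Slc5a12 and Slc22a12). The former was led by noncoding genes such as Snhg11 and the latter by genes such as Gm29773 and Gm37760. PT-like clusters of 24837, 13170, 8218 and 1533 cells were given no segment. The segments were thus not cleanly separated. Of the 43 genes, 26 were highest in CD-IC-like and 16 in DCT-like cells, 1 (Atp5if1) in cycling cells, and 28 were lowest in endothelial-like and 12 in T cell-like cells. The AKI-CKD mice lay wholly above the Control mice in 10 of 12 types and the AKI-CKD + EGT mice wholly below AKI-CKD in 9. Endothelial-like and cycling cells overlapped in both comparisons. The same counts of types were 9 and 7 for ribosomal protein genes, 8 and 9 for nuclear complex I genes and 1 and 0 for the complex II genes. Types come from the same 9 libraries and are no replicates of one another.

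**Figure D3:**
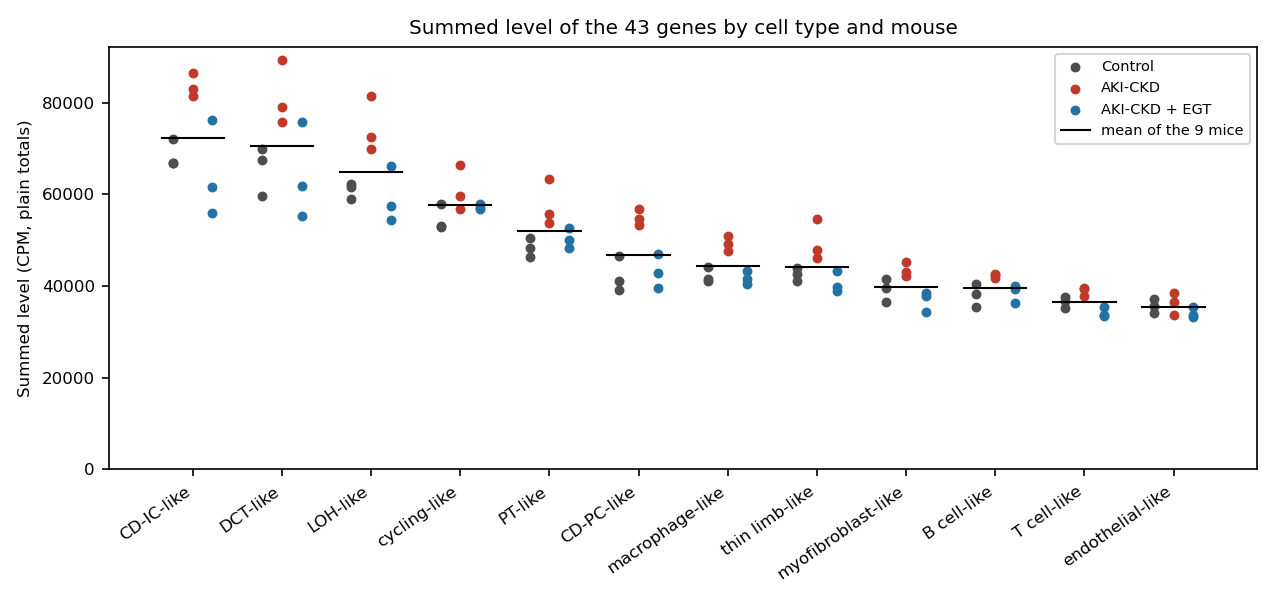
Summed level of the 43 genes (y axis, CPM with plain totals, from 0) by marker-defined cell type, one point per mouse coloured by group, with a line at the mean of 9 mice. CD-IC-like and DCT-like cells are highest and endothelial-like cells lowest, and AKI-CKD points lie on top in most types.

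Of the 43 genes, Cox7a1 differed most between types. Cox7a1 made up 10.9% (SD 2.28, n = 9) of Cox7a1 and Cox7a2 UMIs in CD-IC-like cells, from 7.87% to 14.2%. By group the shares there were 11.2%, 10.5% and 14.2% in Control, 13.6%, 12.6% and 10.8% in AKI-CKD and 8.75%, 8.34% and 7.87% in AKI-CKD + EGT mice. The AKI-CKD + EGT mice were thus below all others, whereas Control and AKI-CKD overlapped, and this difference was not tested. PT marker RNA in CD-IC-like cells also varied, at 49689.5, 41646.6 and 18721.7 CPM in Control mice 1, 2 and 3. It was 19341.8, 12348.5 and 40288.7 CPM in AKI-CKD and 27723.4, 48574.1 and 58581 CPM in AKI-CKD + EGT mice. The part of PT marker RNA in the shares was not tested. AKI-CKD + EGT mouse 1 had only 77 CD-IC-like cells. In CD-PC-like cells the Cox7a1 share was 6.99% (SD 1.48), in PT-like cells 3.64% (SD 0.665), in DCT-like cells 3.50% (SD 0.713) and in endothelial-like cells 2.89% (SD 0.547). The level of Cox7a1 in CD-IC-like cells, 417 CPM (SD 126), exceeded that of CD-PC-like cells, the next in order, in 9 of 9 mice. Between its highest and lowest type Cox7a1 spanned a log2 ratio of 3.27, and the other 42 genes spanned 0.76 to 1.39. By contrast, Atp5mc2 stayed between 1.15% and 2.08% of Atp5mc UMIs on average in all types, with Atp5mc1 at 47.9% to 53.8%.

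**Figure D4:**
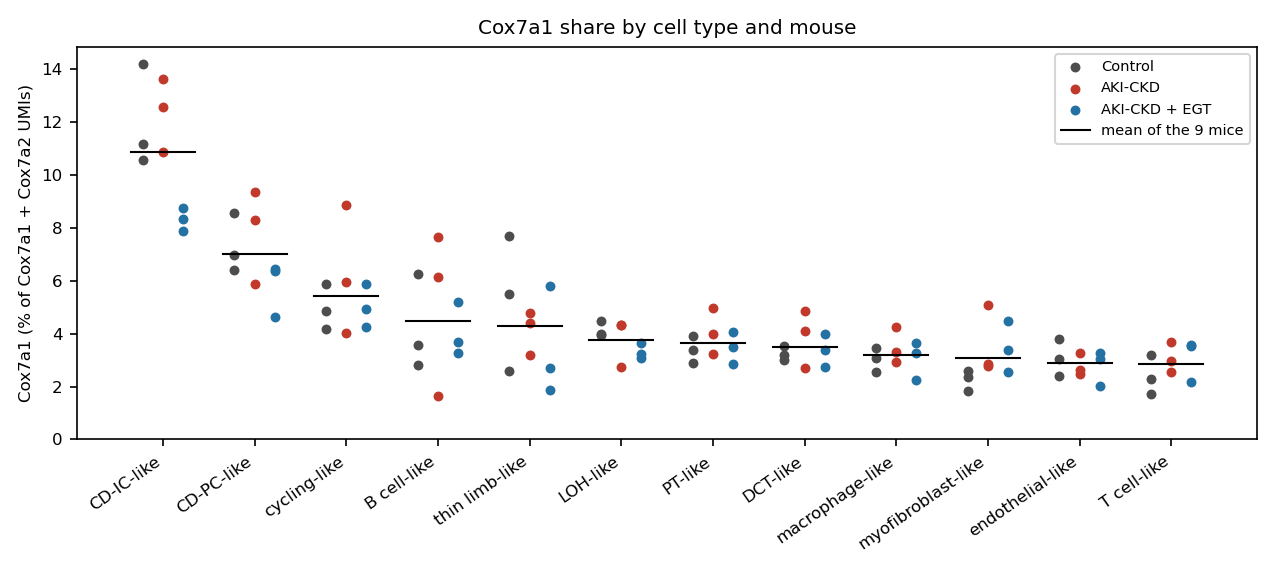
Cox7a1 as percent of Cox7a1 and Cox7a2 UMIs (y axis, from 0) by marker-defined cell type, one point per mouse coloured by group, with a line at the mean of 9 mice. All 9 CD-IC-like points lie between 7.87% and 14.2%, with the 3 AKI-CKD + EGT points lowest, and PT-like points between 2.86% and 4.95%.

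Other genes moved with the members, and their part in these results was not tested. In PT-like cells the median log2 fold change of 40 nuclear complex I genes was 0.28 and -0.40, and that of 87 ribosomal protein genes 0.38 and -0.46. The 13 mitochondrially encoded genes had medians of -0.50 and 0.60, opposite in sign to the nuclear subunits. As percent of UMIs in PT-like cells, mitochondrially encoded complex III to V RNA was 4.23%, 2.90% and 1.07% in Control, 2.21%, 1.94% and 1.45% in AKI-CKD and 2.58%, 3.02% and 4.09% in AKI-CKD + EGT mice. The Control mice alone thus spanned more than both other groups. Nuclear to mitochondrial RNA of complex IV was 0.743, 1.14 and 2.73 in Control, 1.63, 2.08 and 2.48 in AKI-CKD and 1.30, 1.16 and 0.753 in AKI-CKD + EGT mice, which separated the cisplatin groups but not AKI-CKD from Control. Assembly factors in PT-like cells had medians of 0.16 and -0.26 for the 4 of complex II, 0.14 and -0.24 for the 9 of complex III, 0.16 and -0.27 for the 23 tested of complex IV and 0.11 and -0.25 for the 5 of complex V. These lay nearer to 0 than the medians of the subunits for complexes III, IV and V, and further from 0 for complex II.

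Gene length moved with the fold changes as well. Of the 43 genes, 40 had a coding length in GENCODE M21. In PT-like cells the 14 members under 300 bases had a median of 0.40 (log2) for AKI-CKD against Control, beside 0.26 for all 285 genes of that length. The 20 members of 300 to 900 bases had 0.27, beside 0.12 for 3394 genes, and the 6 over 900 bases 0.08, beside -0.04 for 9712 genes. For AKI-CKD + EGT against AKI-CKD the medians were -0.47 beside -0.27, -0.32 beside -0.15 and -0.22 beside 0.01. Of the 285 genes under 300 bases, which include the 14 members, 222 (77.9%) were above 0 in the first comparison and 70 (24.6%) in the second. The medians of members lay further from 0 than all genes of their length. The 6 longest were Sdha, Uqcrc1, Uqcrc2, Cyc1, Atp5f1a and Atp5f1b.

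**Figure D5:**
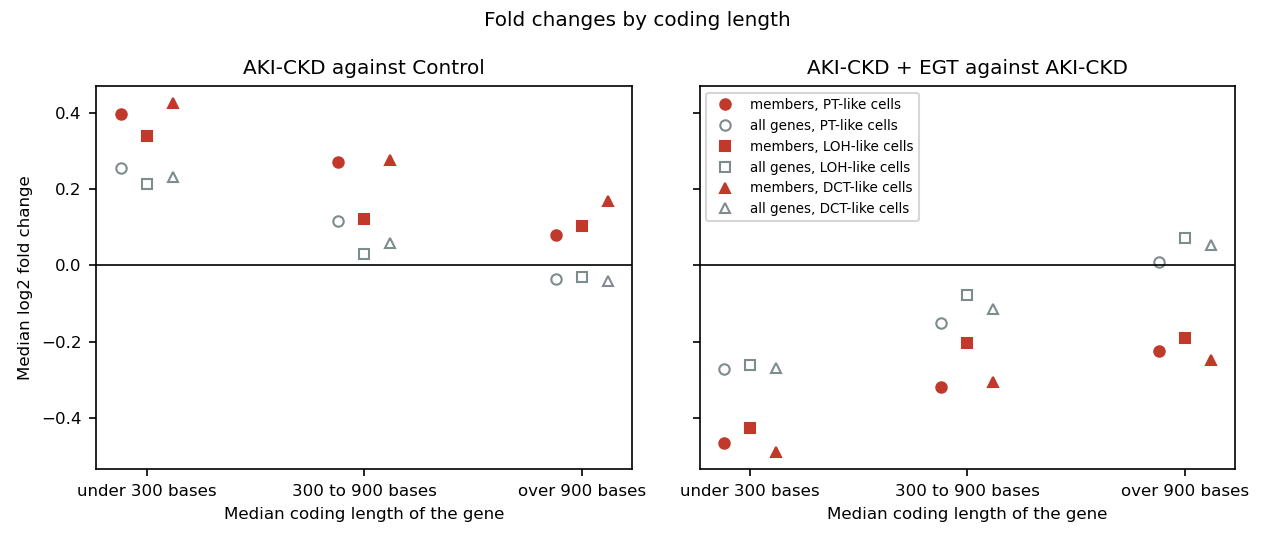
Median log2 fold change (y axis) of members (filled) and of all genes tested (open) in 3 classes of coding length (x axis), for AKI-CKD against Control (left) and AKI-CKD + EGT against AKI-CKD (right), in PT-like, LOH-like and DCT-like cells. Both sets are furthest from 0 under 300 bases, and members lie beyond all genes in each class.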

How the data were processed

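Kidney cells of 9 mice were captured in droplets with poly(dT) primers. The authors deposited, per mouse, a matrix of raw UMI counts by gene symbol and barcode, made per the file headers with PISA 1.0 and neither normalized nor pooled. The build is GRCm39 in the submitters' notes, and the aligner is not given in the sources used here. Groups and replicate numbers came from the labels.

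Cells with at least 1000 UMIs, 500 genes and at most 15% mitochondrial UMIs were kept, which left 196925 cells, more than the study states for these limits. Counts were log-normalized, and 2000 variable genes (without members, mitochondrial and ribosomal genes), 30 components, Harmony, 20 neighbours and Leiden clustering at resolution 1.1 gave 80 clusters (igraph 0.11.9, Python 3.11.15). A cluster was named with at least 3 markers 1.5-fold higher than elsewhere. This scoring was set after clusters were seen and was changed several times before any group test. Requiring 2-fold gave 105035 PT-like cells in place of 154247 and the same LOH-like and DCT-like cells, and was added after seeing the data, as was leaving out the PT-like cluster with 3 or more raised markers of another type. Scrublet (scanpy 1.11.5) called only 0 to 3 doublets in libraries of 17196 to 27463 cells. Its calls were not relied on, and no cell was removed for it, so doublets may remain. Types with under 30 cells in a mouse were left out of type levels.

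UMIs were summed per mouse and tested in 1 edgeR 4.0.16 fit of 9 mice (R 4.3.3, TMM, its low-count filter, quasi-likelihood F test, adjusted p under 0.05 over all genes). The test was checked on simulated data, with changes larger than any of the members here. That check does not show whether changes as small as theirs would be called. DESeq2 1.42.0, other library sizes, filters, clusterings, the replicate block and each mouse left out were alternatives. Named genes were Cox6b1 and Uqcr11, the highest and lowest log2 fold change per complex in PT-like cells, isoform sets, the inhibitor and cytochrome c. Others were chosen after their values were seen. Members and lists were chosen with earlier results of these data known.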

Additional observations from a re-analysis of the deposited data

How the results depend on the processing

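The median log2 fold change of the members kept its sign under every alternative run, in all kept, PT-like, LOH-like and DCT-like cells, and moved by more than the spread between mice only with plain total UMIs, to -0.14 in all kept cells and -0.14 in PT-like cells (AKI-CKD + EGT against AKI-CKD), where the median of all genes was 0.22. No member passed edgeR's test in the reported fits. For AKI-CKD + EGT against AKI-CKD, DESeq2 called 5 members in all kept cells (and 1.43% of the genes to which it gave an adjusted p), 5 in PT-like (2.34%), 3 in LOH-like (1.16%) and 3 in DCT-like cells (0.9%), and no filter on low counts gave 2 in LOH-like (1.53% of all genes) and 3 in DCT-like cells (1.95%). For AKI-CKD against Control in DCT-like cells, no filter gave 1 (Cox7a1, beside 0.96% of all genes). Leaving out 1 mouse gave 0 to 2 members in LOH-like cells (1 without Control mouse 3, beside 0.425% of all genes, and 2 without AKI-CKD + EGT mouse 1, beside 1.84%) and 0 to 2 in DCT-like cells (2 without AKI-CKD + EGT mouse 1, beside 1.27%). The cause was not tested. In the deposited numbering, deviations of same-numbered mice correlated between -0.48 and 0.45. No value for differently numbered mice was set beside these, so they cannot decide whether numbers pair the mice. The replicate block changed no call of a member. Without Harmony, DCT-like cells numbered 26504. At these counts the median SE of a member in PT-like cells was 0.18 on the log2 scale.

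Signs were counted for the named genes only, once per gene, population, comparison and alternative. They turned in 42 such results where all mice were kept and in 58 where 1 mouse was left out. In 1318 and 1166 results they were kept. All values that follow are log2 fold changes, "injury" standing for AKI-CKD against Control and "EGT" for AKI-CKD + EGT against AKI-CKD. With plain total UMIs, all kept cells gave Sdhb -0.036 (injury) and Sdha 0.16, Sdhd 0.11, Uqcrc2 0.17, Atp5f1a 0.022 and Atp5mc3 0.0050 (EGT). PT-like cells gave Sdhb -0.032 and Atp5f1a -0.074 (injury) and Sdha 0.16, Sdhd 0.12, Uqcrc2 0.19, Atp5f1a 0.014 and Atp5mc3 0.0054 (EGT). LOH-like cells gave Atp5f1a 0.0097 (injury), Uqcrc2 0.00033 and Uqcrfs1 0.021 (EGT), and DCT-like cells Atp5f1a -0.0024 (injury), Sdhd 0.041, Uqcrc2 0.060 and Atp5if1 0.041 (EGT). Without Harmony the values were Uqcrfs1 0.016 (PT-like, injury), Atp5f1a 0.011 (LOH-like, injury), Sdhd -0.067 (LOH-like, EGT), Atp5if1 -0.0022 (DCT-like, injury), and Sdhd 0.020, Uqcrc2 0.037 and Atp5if1 0.090 (DCT-like, EGT). For Uqcrfs1 (injury), library sizes without mitochondrial, ribosomal protein and Malat1 UMIs gave 0.0048 (PT-like) and 0.00032 (DCT-like), 2-fold markers 0.0097 (PT-like), a mitochondrial limit of 10% 0.015 (PT-like) and 0.028 (DCT-like), and no filter 0.0060 (PT-like). That limit gave Atp5f1a 0.013 and no filter Cox5a -0.0019 (LOH-like, injury), and a fit of only the 6 mice compared gave Atp5f1a -0.0036 (PT-like, injury). The replicate block gave Sdhd -0.010 (LOH-like, EGT) and Uqcrfs1 0.0014 (DCT-like, injury). Without the 6% highest Scrublet scores, LOH-like cells gave Atp5f1a 0.0073 (injury), Sdha 0.0020 and Sdhd -0.00041 (EGT), and DCT-like cells Uqcrfs1 0.016 (injury).

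Leaving out 1 mouse gave these ranges for injury, in the order all kept, PT-like, LOH-like and DCT-like where a sign turned. Atp5f1a ranged from -0.12 to 0.095, -0.086 to 0.12, -0.095 to 0.076 and -0.051 to 0.22. Sdhb ranged from -0.053 to 0.14, -0.021 to 0.16 and, in LOH-like cells, -0.027 to 0.15. Sdha ranged from -0.18 to 0.070 and -0.14 to 0.075. Uqcrfs1 ranged from -0.17 to 0.12, -0.14 to 0.15 and, in DCT-like cells, -0.10 to 0.17. Atp5if1 ranged from -0.022 to 0.33 in LOH-like and -0.041 to 0.33 in DCT-like cells. For EGT, Sdha ranged from -0.19 to 0.060, -0.16 to 0.056 and -0.12 to 0.021. Sdhd ranged from -0.38 to 0.11, -0.34 to 0.12, -0.27 to 0.17 and -0.34 to 0.098. Uqcrc2 ranged from -0.19 to 0.096, -0.14 to 0.12, -0.10 to 0.050 and -0.21 to 0.076. Atp5mc2 ranged from -0.14 to 0.79, -0.14 to 0.77, -0.12 to 0.82 and -0.24 to 0.78, negative without AKI-CKD + EGT mouse 1. Uqcrfs1 ranged from -0.14 to 0.11 in LOH-like and Atp5if1 from -0.17 to 0.022 in DCT-like cells.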
